A study of Homo sapiens with 7 samples.

Results

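The genes that supply and place histones were examined in 7 CUT&RUN libraries of ZR-75-1 cells, 6 made with an Rb antibody and 1 with IgG2a. They comprise the histone chaperone genes CHAF1A, CHAF1B, ASF1A, ASF1B, NASP, HIRA and HJURP and the histone mRNA regulators SLBP and NPAT, 9 of 19970 protein-coding genes. Members were chosen by their function, but they and the gene lists used below were chosen with earlier results of these data known. A peak was given to a gene when it overlapped the promoter window by at least 1 bp. That window ran from 2000 bp upstream to 500 bp downstream of any transcription start site of the gene in GENCODE 44. The 9 genes have 55 such start sites. Peaks inside the genes were also searched for, and none was found outside the promoter windows.

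CUT&RUN releases the DNA around an antibody-bound protein with a tethered nuclease, and peaks are the places where released fragments pile up. ZR-75-1 is a human breast cancer line that expresses the oestrogen receptor. For 4 days the parental line was kept in 500 nM palbociclib, which inhibits CDK4/6, or in DMSO, and 2 Rb libraries were made of each. RB1 KO cells, which by the study's methods derive from single sorted cells, gave 1 Rb library with each treatment. Palbociclib-treated parental cells also gave 1 IgG2a library, made with a non-targeting antibody. The comparison of parental groups asks where Rb sits on chromatin when CDK4/6 is inhibited, and the RB1 KO and IgG2a libraries show what is called without Rb or without its antibody.

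Histones made in S phase must reach the replication fork as dimers and tetramers held by chaperones. NASP keeps a reserve of histones H3 and H4, ASF1A and ASF1B pass them on, and the CAF-1 complex, built on CHAF1A and CHAF1B, deposits them on new DNA. HIRA places the variant H3.3 outside replication, and HJURP brings the centromeric variant CENP-A to centromeres. The mRNAs of replication-dependent histones end in a stem-loop in place of a poly(A) tail. SLBP binds that stem-loop, and NPAT, a cyclin E-CDK2 substrate, switches the histone gene clusters on. Rb restrains E2F factors, which drive genes of DNA replication, until CDKs phosphorylate it.

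The lists were very unequal in length. The DMSO lists held 996 and 816 peaks, the palbociclib lists 8399 and 8256, the RB1 KO lists 65 and 51, of which 4 and 5 were on chromosomes 1 to 22 or X, and the IgG2a list 2648. Peak lists hold no reading of RB1 expression, so the knockout itself was not checked here. The lists carry no read totals. The lowest background in a list, which scales with its depth, was between 0.465 and 0.571 fragments in the 4 parental lists and between 0.446 and 0.654 in the others. The weakest peak on a chromosome had 5 or 6 fragments at its summit in each parental list and 5 in the IgG2a list. In the RB1 KO lists it had 13 with DMSO and 6 with palbociclib, over only 4 and 5 peaks. By the study's general statement on CUT&RUN, replicates came from separate cultures with separate profiling reactions, and the labels themselves give only replicate numbers. Its reporting summary states that Rb profiling after palbociclib was a single experiment with 2 biological replicates per treatment arm. Spread between replicates is therefore spread within that experiment.

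With palbociclib, 8 of the 9 genes carried an Rb promoter peak in both libraries, and ASF1A was the exception. By the same rule 34.9% of all protein-coding genes had one. With DMSO, ASF1B, NASP and SLBP had a peak in both libraries, 3 of 9 genes against 2.90% of all, and NPAT had a peak in 1 library. CHAF1A, CHAF1B, HIRA and HJURP had a peak in both palbociclib libraries and in no DMSO library, 4 of 9 genes against 28.4% of all. No member had a peak in the IgG2a list, where 1.95% of all genes had one, or in either RB1 KO list, where the share was 0.0100%. These counts are descriptions of single lists, and the RB1 KO and IgG2a groups have no replicate. When every parental list was cut to its 816 peaks of highest significance, 4 members kept a peak in both palbociclib libraries (ASF1B, NASP, SLBP and NPAT), against 3.82% of all genes, and 0 had one there and in no DMSO library, against 0.736%.

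**Figure D1:**
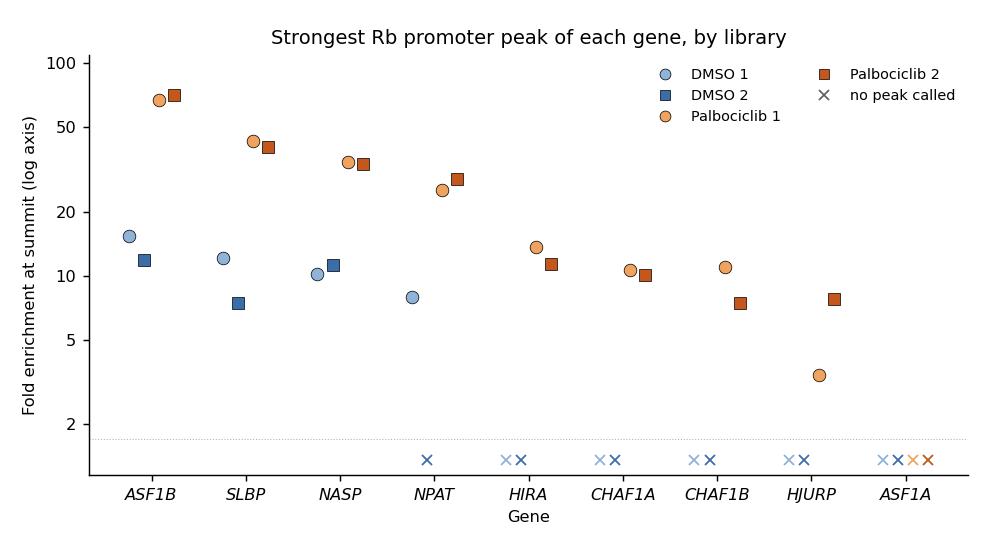
Fold enrichment at the summit of the strongest promoter peak of each gene (y, log axis) in the 4 parental Rb libraries (x, grouped by gene); each point is 1 library, and a cross below the dotted line marks a library with no peak called. The palbociclib points of ASF1B, SLBP and NASP lie above both of their DMSO points, and ASF1A has crosses only. Both CHAF1A points and the HIRA point of palbociclib library 2 are peaks away from the MANE Select start, over starts of neighbouring genes.

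ASF1B, the replication-linked ASF1 paralogue, had the highest Rb fold enrichment of the 9 genes, though not the highest summit pileup in every library. Fold enrichment, the authors' ratio of summit pileup plus 1 to local background plus 1, was 15.3 and 11.9 in the DMSO libraries and 67.3 and 71 in the palbociclib libraries. Both palbociclib values were above both DMSO values. The palbociclib mean of 69.2 ± 2.63 (SD, n = 2) ranked 2 of the 6974 genes called at the promoter in both palbociclib lists. The peak spanned chr19:14136392-14137582 in palbociclib library 1 on GRCh38, and its 4 summits fell within 30 bp of each other, at −288 and −295 bp from the MANE Select start site with DMSO and −297 and −267 bp with palbociclib, where negative is upstream. The summits lay outside the transcript, between the start of ASF1B and that of ADGRL1-AS1, a long non-coding RNA on the opposite strand that starts 557 bp upstream of it. With palbociclib the peak covered both starts, and with DMSO it ended upstream of the MANE Select start of ASF1B. The peak cannot be assigned to either gene alone.

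The DNA under this summit is shown because it had the highest fold enrichment of the 9 genes. It runs 5′ to 3′ on the strand of ASF1B from −350 to −90 bp, on GRCh38, and holds no exon of a protein-coding gene. Capitals mark 7-letter E2F cores and the NF-Y motif CCAAT, each on either strand. A core is an E2F motif (TTTCCCGC, TTTGGCGC, TTTGCCGC or TTTCGCGC) without its first T, and was added after the 8-letter forms had been looked at in these data. Where motifs overlapped, each was counted.
ASF1B, chr19:14136679-14136939: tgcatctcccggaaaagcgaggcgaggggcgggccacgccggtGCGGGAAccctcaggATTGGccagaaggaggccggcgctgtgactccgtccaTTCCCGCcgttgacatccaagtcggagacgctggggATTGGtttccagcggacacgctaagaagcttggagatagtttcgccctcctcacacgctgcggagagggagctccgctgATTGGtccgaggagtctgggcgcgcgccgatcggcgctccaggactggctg
These 261 bases held 2 E2F cores and 3 CCAAT motifs. The ASF1B cores were centred at −304 and −252 bp, so that the first was −7 bp from the summit of palbociclib library 1 and the second 15 bp from that of library 2. ASF1A, its paralogue, had no promoter peak in any list. The nearest palbociclib peaks, 40.6 and 40.5 kb downstream of its start, had fold enrichments of 9.69 and 6.43 and lay in the promoter window of MCM9, a helicase gene. A peak list shows only what passed the caller's threshold, so a weaker signal at ASF1A could not be seen here.

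NASP, the H3-H4 reservoir chaperone, was the other chaperone of the 9 genes called in both DMSO libraries. Its fold enrichment was 10.2 and 11.2 with DMSO and 34.3 and 33.6 with palbociclib, mean 33.9 ± 0.523 (SD, n = 2), and it ranked 172 of 6974. The palbociclib values lay above both DMSO values and were close to each other. Its strongest summits lay farther into the gene than those of any other member, in intron 1, at 903 and 665 bp downstream of the MANE Select start with DMSO and at 810 and 865 bp with palbociclib. In both palbociclib libraries the peak was 1 block of 1742 and 1753 bp (chr1:45583400-45585141 in library 1) that covered the start site and reached into the intron. Since its strongest summits lay beyond the promoter window, NASP was not counted in both libraries of either treatment when the summit itself had to fall inside that window. With DMSO, library 1 had a block of 874 bp downstream of the start, and library 2 had 2 separate peaks of 181 and 476 bp. The start of a long non-coding RNA, ENSG00000289407, lies 108 bp upstream of the MANE Select start of NASP and under the palbociclib peak. NASP held the only 8-letter E2F motif within 100 bp of a member summit in palbociclib library 1, TTTCCCGC on the strand opposite to the gene. The 30 bases around its 7-letter core, in capitals, are shown because they mark a site in the intron and not at the start.
NASP, chr1:45584759-45584788: gccttgaggagGCGGGAAaactccattgtt
This core was centred 732 bp downstream of the start, −78 bp from the summit of palbociclib library 1 and −133 bp from that of library 2.

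The CAF-1 subunit genes CHAF1A and CHAF1B had peaks at their start sites in the palbociclib libraries only. At the start of CHAF1A fold enrichment was 10.6 and 8.43, with summits at 28 and −24 bp. At the start of CHAF1B it was 11 and 7.41, with summits at 43 and 65 bp. The ranges of the 2 subunits overlapped, and each value was below every palbociclib value of ASF1B, SLBP, NASP and NPAT. The peak at the CHAF1A start also overlapped the promoter window of SH3GL1 in both palbociclib libraries. CHAF1A also counted a second peak, at −2183 and −2287 bp with fold enrichments of 10.6 and 10.1, which covered the start of SH3GL1 2093 bp upstream on the opposite strand. CHAF1B ranked 3050 of 6974. CHAF1A ranked 2529, but by this upstream peak, whose summits lay outside the promoter window, and not by the peak at its own start. The nearest DMSO peaks were 69.1 kb from CHAF1A and 229 kb from CHAF1B in both DMSO libraries. Both genes carried E2F cores close to their summits, at the sites below, which are printed because the cores lie at the start itself.
CHAF1A, chr19:4402592-4402621: ggctcgcccaaTTGGCGCgcggactgcggg
CHAF1A, chr19:4402622-4402651: ggtcgccgcggTTCCCGCcaaatacgagcg
CHAF1B, chr21:36385379-36385408: gcctgcggcgcGCGGGAAgcggcgcgcgct
The CHAF1A cores were centred at −34 and −4 bp and the CHAF1B core at 1 bp from the MANE Select start.

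HIRA, the H3.3 chaperone that works outside replication, had 2 palbociclib peaks and no DMSO peak. The peak at its MANE Select start had fold enrichments of 13.7 and 10.1, summits at −165 and −89 bp, and widths of 1170 and 1220 bp. In both libraries this peak also overlapped the promoter window of MRPL40, so by this rule it is shared with that gene. The other peak, at an alternative start, had fold enrichments of 10.7 and 11.3 with summits at −15898 and −15959 bp. It also covered the start of C22orf39, 15978 bp upstream of the HIRA start, and in library 2 that of UFD1-AS1, so it cannot be given to HIRA alone. HIRA had an 8-letter E2F motif, TTTCCCGC on the strand of the gene, whose core was centred at −41 bp, 48 bp from the summit of palbociclib library 2 and 124 bp from that of library 1.
HIRA, chr22:19431760-19431789: gtggggagcggtTTCCCGCcggggcgattt
HJURP, the CENP-A chaperone, had the weakest calls. Its fold enrichment was 3.4 in palbociclib library 1 and 7.72 in library 2, and its −log10 q was 1.57 and 9.51. The first value is near the lowest −log10 q of that list, 1.32, and HJURP was not counted in both palbociclib libraries when a −log10 q of at least 5 or a fold enrichment of at least 5 was required. The peaks were 385 and 150 bp wide and their summits were 281 bp apart, at 183 and −98 bp. HJURP ranked 5609 of 6974. An E2F core, TTGGCGC on the strand of the gene, was centred 11 bp downstream of its MANE Select start. That core lay −172 and 109 bp from the summits of palbociclib libraries 1 and 2, outside the 100 bp searched around them.

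SLBP, the stem-loop binding protein, had the second highest palbociclib fold enrichment of the 9 genes. Fold enrichment was 12.1 and 7.46 with DMSO and 42.9 and 40.5 with palbociclib, mean 41.7 ± 1.64 (SD, n = 2), and SLBP ranked 83 of 6974. The groups did not overlap, while the DMSO libraries differed from each other by more than the palbociclib libraries did on the log2 scale. The summits were at −142 and −194 bp with DMSO and −194 and −190 bp with palbociclib, 4 bp apart under the drug. The peak of palbociclib library 1 spanned chr4:1711778-1713183 and covered 2 minor start sites of TACC3 on the opposite strand, 1 of them 539 bp upstream. It did not cover the canonical start of TACC3, but it cannot be assigned to SLBP alone. The stretch under the summits, from −260 to −90 bp on the gene's strand, is shown as a strong site without the letters searched for.
SLBP, chr4:1712409-1712579: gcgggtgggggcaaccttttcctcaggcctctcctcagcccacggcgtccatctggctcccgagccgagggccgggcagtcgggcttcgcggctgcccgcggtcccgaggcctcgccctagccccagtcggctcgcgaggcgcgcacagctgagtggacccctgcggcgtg
These 171 bases held 0 E2F cores, 0 CCAAT and 0 GGGCGG motifs on either strand. The absence says only that these letters are not in this window.

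NPAT, the activator of the histone gene clusters, was called in DMSO library 1 at a fold enrichment of 7.93 and not in DMSO library 2. In the palbociclib libraries it was 25.4 and 28.6, mean 27 ± 2.22 (SD, n = 2), and NPAT ranked 314 of 6974. Summits lay at −150 bp with DMSO and −188 and −172 bp with palbociclib. They fell between NPAT and ATM, the DNA damage kinase gene, whose canonical start is 429 bp upstream on the opposite strand and under the same peak (chr11:108222302-108223338 in palbociclib library 1). Rb signal here belongs to a shared promoter and cannot be split between NPAT and ATM. An E2F core was centred at −10 bp, 178 and 162 bp from the palbociclib summits, and therefore outside the 100 bp searched around them.
NPAT, chr11:108222634-108222663: aggcgggacaaaTTGCCGCgagttcagtgc
For motif counts each gene was represented by the peak at its MANE Select start, also for CHAF1A and HIRA, where another peak was stronger in 1 or both libraries. In palbociclib library 1, 4 of 8 such summits had a 7-letter core within 100 bp, against 24.3% of 6102 promoter peaks shared by the palbociclib lists. In library 2 it was 4 of 8 against 24.2% of 6155. The 8-letter forms were found at 1 of 8 in each library, against 5.69% and 6%. CCAAT was found at 3 and 4 of 8 summits, against 25.2% and 25.8%, and GGGCGG at 6 of 8 in each library, against 69.9% and 70.4%. TTTGAA or TTCGAA, a core of the CHR element, was found at 0 and 1 of 8, against 4.34% and 4.61%. CCGGAAGT, an ETS motif, was found at 0 and 1 of 8, against 3.15% and 3.28%, and TGACGTCA, the CRE, at 0 of 8 in each, against 1.1% and 1.02%. With 8 windows these shares are descriptions only.

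ASF1B, SLBP and NPAT differed less in summit pileup than in fold enrichment, because their backgrounds differed. The whole-number pileup at each summit and the background under it were recovered from each peak's fold enrichment and p. At ASF1B the summit pileup was 101 and 109 fragments with palbociclib over a background of 0.516 and 0.549, the lowest value in each list. At SLBP it was 102 and 100 over 1.4 and 1.49, and at NPAT 86 and 102 over 2.42 and 2.61. The pileups of these 3 promoters thus overlapped, although their fold enrichments did not. At NASP the pileup was 51 in each palbociclib library, again over the lowest background. NASP thus stood above NPAT in fold enrichment with fewer fragments at its summit. With DMSO the pileups were 23 and 17 at ASF1B, 29 and 16 at SLBP and 15 and 16 at NASP, and the single call at NPAT had 29. Among the weaker members the palbociclib pileups were 29 and 25 at the HIRA start, 30 and 25 at the CHAF1A start, 26 and 18 at CHAF1B and 9 and 14 at HJURP. In fold enrichment at the MANE Select starts, the ranges of HIRA, CHAF1A and CHAF1B overlapped, as did those of CHAF1B and HJURP, and the neighbours in the order ASF1B, SLBP, NASP, NPAT and HIRA did not overlap.

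**Figure D2:**
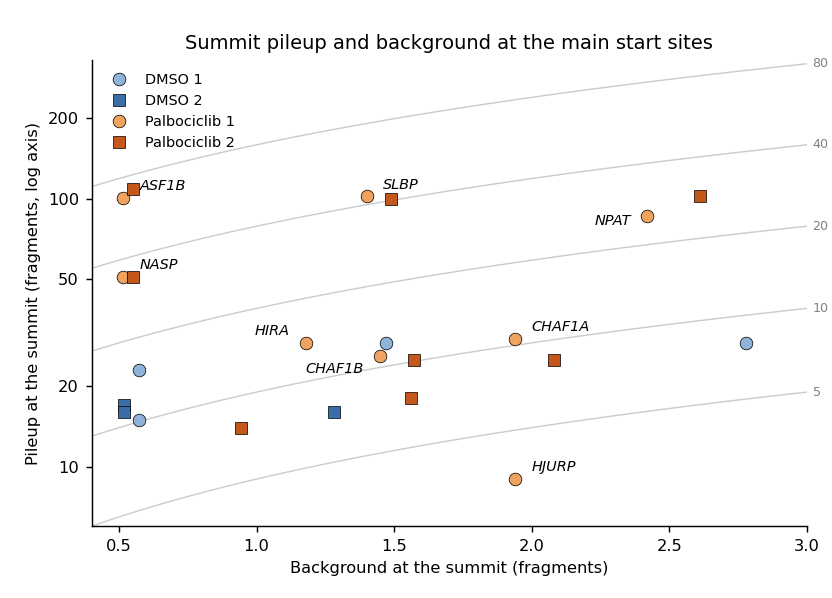
Fragment pileup at the summit (y, log axis) against the background at the same place (x, fragments) for the peaks at the MANE Select starts, 1 point per gene and library, with gene names at the palbociclib library 1 points; grey lines join points of equal fold enrichment, given at the right. ASF1B, SLBP and NPAT lie at pileups between 86 and 109 with palbociclib while their backgrounds run from 0.516 to 2.61.

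The treatments were tested at the regions called in all 4 parental lists, since elsewhere a value is missing. There were 476 such regions, among them those of ASF1B, NASP and SLBP. In limma on log2 fold enrichment with Benjamini-Hochberg adjustment, palbociclib was higher at ASF1B by 2.36 ± 0.235 (log2, SE; 5.14-fold, adjusted p = 1.61e-06). At SLBP the limma difference was 2.13 ± 0.262 (4.38-fold, adjusted p = 3.82e-06), and at NASP it was 1.67 ± 0.225 (3.18-fold, adjusted p = 7.96e-06). All 3 rose, and with them 475 of the 476 regions (99.8%), and the median difference of all regions was 1.9 or 3.73-fold. The direction is therefore that of nearly every shared region. Within them ASF1B ranked 47, SLBP 124 and NASP 348 by size of the difference, so ASF1B and SLBP lay above the median and NASP below it. An exact permutation test of 2 against 2 libraries, two-sided, gave p = 0.333 for each gene, the smallest value it allows. For NPAT, with 1 DMSO value, the fit without DMSO replicate 2 gave a difference of 1.77 (log2; 3.4-fold) beside a median of 1.74 over 884 regions. That fit left out the library with no call at NPAT and takes the lone DMSO library to vary like the palbociclib pair.

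**Figure D3:**
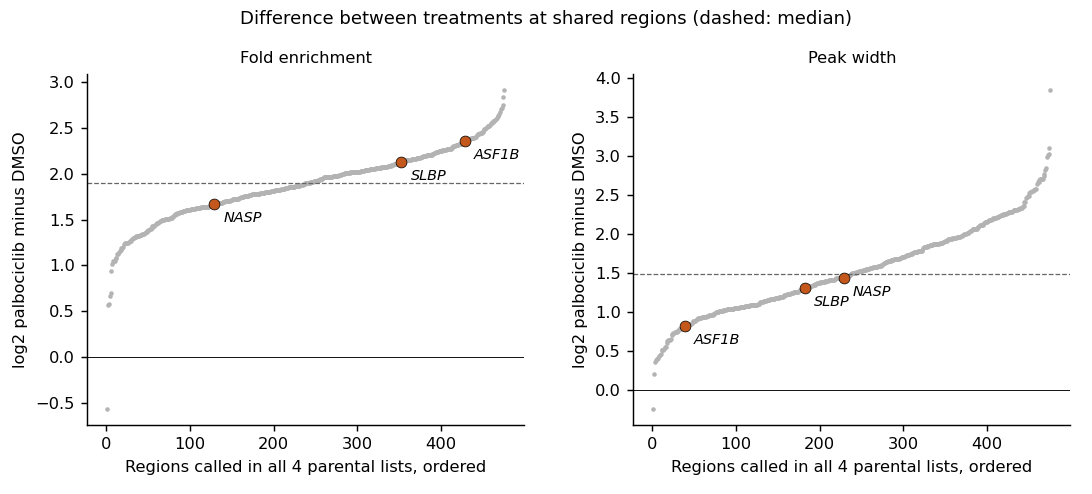
Palbociclib minus DMSO difference in log2 fold enrichment (left) and log2 peak width (right) for the 476 regions called in all 4 parental lists, each grey point 1 region in order of its difference, with ASF1B, SLBP and NASP in orange. In fold enrichment ASF1B (2.36) and SLBP (2.13) sit above the dashed median of 1.9 and NASP (1.67) below it, and in width all 3 sit below the median of 1.49.

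Peaks at the same 3 promoters were also wider with palbociclib. Width is the stretch that passed the caller's threshold, so it can depend on fold enrichment, and whether it did was not tested. ASF1B peaks measured 529 and 632 bp with DMSO and 1191 and 875 bp with palbociclib. SLBP peaks measured 473 and 566 bp against 1406 and 1153 bp. At NASP the widest peak was 874 and 476 bp against 1742 and 1753 bp. The groups did not overlap at any of the 3 genes. On the log2 scale limma gave differences of 1.3 ± 0.205 (SE) at SLBP (adjusted p = 0.00492), 1.44 ± 0.336 at NASP (adjusted p = 0.0146) and 0.82 ± 0.235 at ASF1B (adjusted p = 0.0263), against a median of 1.49 over the 476 regions, of which 92.6% were wider. ASF1B thus ranked 47 by fold enrichment and 438 by width. With 1 palbociclib library left the width calls were mostly lost: without palbociclib replicate 1 the limma count of these members wider was 0 of 3 (1 at an unadjusted p under 0.05, SLBP) and of all regions 174, and without replicate 2 it was 1 of 3 (SLBP; 2 at an unadjusted p under 0.05, SLBP and ASF1B) and 205. The differences themselves were then 1.44 and 1.43 at NASP, 1.16 and 1.44 at SLBP and 0.598 and 1.04 at ASF1B. The width of ASF1B also lost its call without DMSO replicate 1, where the difference was 0.692. With the replicate number as a block in limma it lost its call too, at 0.82 and an adjusted p of 0.0543. NPAT, in the fit without DMSO replicate 2, was wider by 0.51 (log2), beside a median of 1.49 over 884 regions.

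**Figure D4:**
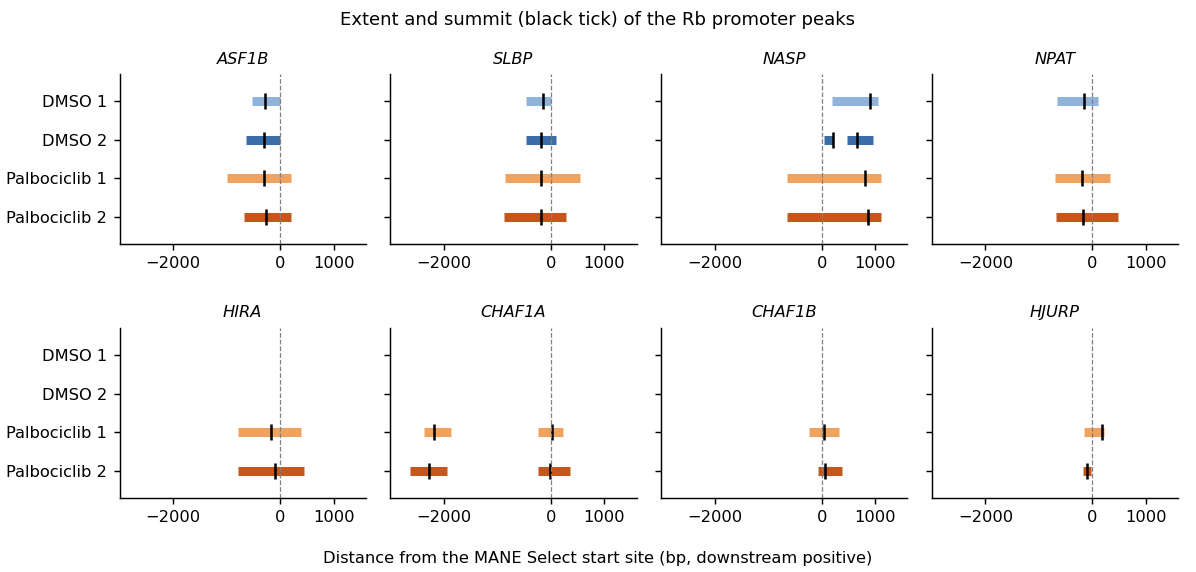
Extent of each promoter peak (coloured bar) and its summit (black tick) by distance from the MANE Select start site in bp (x, downstream positive), for 8 genes and the 4 parental libraries (rows); the HIRA peaks at the distant alternative start lie outside the range shown. The summits of ASF1B, SLBP and NPAT stay in place between treatments while the bars lengthen, the NASP bars lie downstream of the start with DMSO and reach upstream of it with palbociclib, and the lower genes have bars with palbociclib only.

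Each member bound in all 4 parental lists had close counterparts elsewhere in the genome. The nearest gene in log2 fold enrichment over the 4 libraries, of 580 genes with a promoter peak in every one, was PRXL2B for ASF1B, at a distance of 0.332 and where the DMSO values were 14.5 and 13.8 and the palbociclib values 64.1 and 60.7. For NASP it was PPM1D at 0.192, with 9.47 and 10.7 against 37.9 and 33.4. For SLBP it was FIZ1 at 0.273, with 11.1 and 7.22 against 47 and 46.5, equal to its neighbour ZNF524. These distances are descriptions of 4 values each.

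Other genes of histone supply were called by the same rule. Of 38 further histone chaperone, CENP-A deposition and histone mRNA genes, 28 were called at the promoter in both palbociclib libraries (73.7%, beside 34.9% of all genes) and 5 in both DMSO libraries (13.2%, beside 2.90%). The latter were DNAJC9, TONSL, HIRIP3, OIP5 and CASP8AP2. DNAJC9, an H3-H4 co-chaperone, had fold enrichments of 12.4 and 12.1 in the DMSO libraries against 34.7 and 45.3, and at 40 the highest palbociclib mean of the 38. TONSL, which reads newly deposited histones, had 7.83 and 11.6 against 30.7 and 32.5. OIP5, a subunit of the complex that readies centromeres for CENP-A, had 4.23 and 6.99 against 24.1 and 26.2. CASP8AP2, which works with NPAT and SLBP at histone genes and is also called FLASH, had 9.55 and 9.22 against 25.7 and 21.3. HIRIP3, a HIRA-interacting protein, had 7.76 and 6.79 against 22.9 and 21.4. For all 5 the palbociclib values lay above the DMSO values, and all 5 palbociclib means were above those of HIRA, CHAF1A, CHAF1B and HJURP. IPO4, which imports histones, ATRX, a chromatin remodeller that acts with DAXX, and the 3′ end processing factors LSM11 and CSTF2 had no promoter peak in either palbociclib list. CENPA, the cargo of HJURP, was looked up after its values were seen and had 1 peak, in palbociclib library 2, at 5.16.

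By class, 19 of 24 other chaperones, 3 of 4 CENP-A deposition genes and 6 of 10 histone mRNA genes had a peak in both palbociclib libraries. None of the 38 had a peak in an RB1 KO list, beside 0.0100% of all genes, or in the IgG2a list, beside 1.95%. With shares this low, none among 38 says little about these genes. MCM2 to MCM7, the replicative helicase genes, had 6 of 6 with palbociclib and 4 of 6 with DMSO, with a median palbociclib mean of 33.8 against 19.8 for the 8 members called. MCM2 also binds histones and is counted in both lists. The clustered histone genes, whose mRNAs SLBP and NPAT serve, had a peak in both palbociclib libraries at 6 of 69 genes (8.7%) and in both DMSO libraries at 0. Another 3 of the 69 had a peak in 1 DMSO library. In the IgG2a list 2 of the 69 had a peak, beside 1.95% of all genes. These were H2AC25 and H2BC26, at 5.54 against 2.9 in palbociclib library 2. Some clustered histone genes share a peak, and whether reads could be placed among similar gene copies was not tested, so these counts are uncertain.

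**Figure D5:**
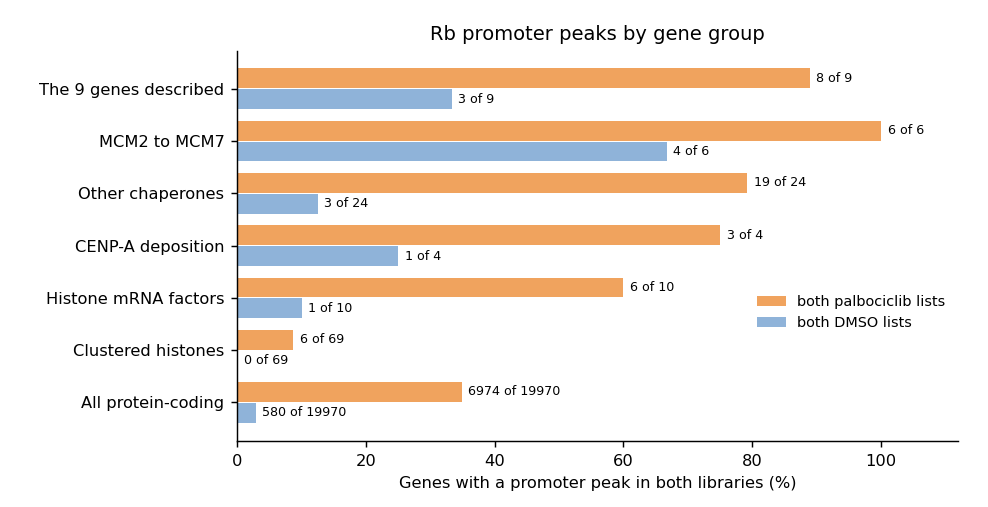
Percentage of genes in each group with an Rb promoter peak in both palbociclib libraries (orange) and in both DMSO libraries (blue), with the number of genes at each bar; groups are single counts without error bars. The 9 genes described reach 8 of 9 with palbociclib and 3 of 9 with DMSO, the clustered histone genes 6 of 69 and 0 of 69, and all protein-coding genes 6974 and 580 of 19970.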

How the data were processed

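Rb CUT&RUN was performed in ZR-75-1 cells with 7 libraries in 5 groups, taken from the sample titles. Members and gene lists were chosen with earlier results of these data known. By the methods of the study, reads were trimmed (BBDuk) and aligned by the authors with Bowtie2 2.3.4.1 to hg38. Mitochondrial and blacklisted reads were dropped, duplicates were not. Each library had its own peak call with MACS2 2.2.7.1 (versions as in the submitters' processing notes) in paired-end mode with matched IgG controls and a q cutoff of 0.05. The control used for the IgG2a list itself is not given in the sources used here. The deposited lists give, for each peak, a fold enrichment (a ratio of summit pileup plus 1 to background plus 1, made by the authors), and the authors' −log10 p and −log10 q.

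Every list was annotated with GENCODE 44 on GRCh38, and 0 peaks ended past a chromosome. Where a gene had several promoter peaks, the highest fold enrichment was used, for width the widest, and for motifs the peak at the MANE Select start. Pileup and background were solved from fold enrichment and p for all 21231 peaks, leaving a misfit of at most 0.00551 in −log10 p. Log2 fold enrichment and log2 width were compared between the parental groups, 2 libraries each, with limma 3.58.1 (R 4.3.3) and Benjamini-Hochberg adjustment over 476 regions, with no pseudocount and no replicate block. The fit and the recovery were tested on simulated data. Motifs were exact letters on both strands, read within 100 bp of the summit with pysam 0.24.0, counting overlapping motifs each. Named genes were all 9 members, further pathway genes with a peak in both DMSO lists, in neither palbociclib list or among the 3 strongest, the nearest gene by log2 distance, and genes starting under a member's peak. Alternatives were a stricter threshold, lists of equal length, other promoter windows, scaled pileup, a variance trend, a replicate block and each library left out. Depth in reads is unknown, and pileups carry counting error.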

Additional observations from a re-analysis of the deposited data

How the results depend on the processing

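The 3 members called in all parental lists stayed higher with palbociclib at adjusted p under 0.05 in limma under all 8 alternatives for fold enrichment, with differences between 1.6 and 2.54 on the log2 scale. Width was positive in all 15 refits and past the threshold in 8. The labels do not say whether same-numbered libraries are paired. The correlation of their deviations was 0.0748, and with 2 pairs of libraries this value cannot settle the question. With a replicate block the count of members higher in fold enrichment was 3 and the count wider was 2, because the adjusted p of ASF1B became 0.0543, and over all regions 475 were higher and 427 wider. Leaving out each parental library in turn, the count of these 3 members wider ran from 0 to 3.

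With lists of equal length, 4 members were called in both palbociclib libraries and 0 there and in no DMSO library. This cut keeps only the strongest peaks of the longer lists. Counting 7-letter E2F cores, added after seeing the data, raised the members with a match from 1 to 4 in each palbociclib library. The other counts of members moved by at most 1 under a −log10 q or fold enrichment of at least 5, a summit in the window, 1000 bp to each side, protein-coding transcripts or a left-out library. With 2 libraries a group, weak promoters such as HJURP, near the threshold in 1 list, are the least certain, and no value exists for signal below a call.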
